A study of Mus musculus with 6 samples.

Results

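Esr1 neurons are the neurons of the mouse preoptic region in which the messenger RNA of estrogen receptor alpha was counted at least 2 times. They were chosen by a rule on raw molecule counts (UMIs, unique molecular identifiers) among barcodes with at least 500 genes and at most 20% mitochondrial UMIs. A barcode was a neuron when Snap25 and Syt1, genes of synaptic vesicle release, summed to at least 4 UMIs and the oligodendrocyte, microglia and endothelial genes Mog, Cx3cr1 and Cldn5 to at most 1. The rule found 342 Esr1 neurons among 16935 neurons and 30824 filtered barcodes, out of 31299 deposited. Of these, 269 were GABA neurons (Gad1, Gad2 and Slc32a1 summing to at least 3 UMIs with no Slc17a6 UMI), 43 were glutamate neurons (at least 1 Slc17a6 UMI with at most 1 of Gad1 and Slc32a1), and 30 met neither definition. They were set against neurons of the same transmitter with no Esr1 UMI, 11671 GABA and 2475 glutamate neurons, here called Esr1-zero neurons. Esr1, Snap25, Syt1, Mog, Cx3cr1, Cldn5, Gad1, Gad2, Slc32a1 and Slc17a6 chose the cells, so their values are given as description only.

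Estrogen receptor alpha is a nuclear receptor that binds estradiol and acts on transcription at estrogen response elements, often through cofactors. In the preoptic region it is known for organising and activating circuits of mating, parental care and the feedback of ovarian hormones on reproduction. Pgr, the progesterone receptor, and Greb1, a nuclear cofactor of the receptor first described in human breast cancer cells, are classical estrogen-induced genes and serve here as the markers of these neurons.

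The libraries came from the preoptic region of female and male mice of 60 to 70 days that had been housed singly for 3 days. Each was a pool of 3 mice of 1 sex, dissociated with protease, sorted for living cells and run on the 10x Genomics platform, with 3 female and 3 male libraries. The labels name no strain, genotype, stage of the estrous cycle or agent for any group. A p-value rests on the spread between library pools, not between mice or cells. The tests of single genes estimate that spread in part from the other genes.

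The libraries contributed unequally. The Esr1 GABA neurons numbered 49 in female replicate 1, 157 in female replicate 2 and none in female replicate 3, beside 31, 28 and 4 cells for male replicates 1, 2 and 3. Female replicate 3 stood apart, with 65 GABA neurons in all. The comparison of Esr1 with Esr1-zero GABA neurons used the 4 libraries with at least 10 Esr1 cells, in which the Esr1 neurons summed to between 223533 and 1883934 UMIs and the Esr1-zero neurons to between 16238072 and 33937685. Of all barcodes, 963 (3.08%) had a sequence that also occurred in another library, as did 10 of the 342 Esr1 neurons (2.92%). Without them, 1072 of the 1132 calls given below held, and no gene that was still tested changed direction.

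Esr1 UMIs were scarce even in the cells that carried them. Among GABA neurons, 909 of 12580 (7.23%) had at least 1 Esr1 UMI, 269 (2.14%) at least 2 and 89 (0.707%) at least 3, and the highest count in a cell was 7. Esr1 itself, which chose the cells, made up 226 and 230 UMIs per 1000000 UMIs of the Esr1 GABA neurons of the 2 female libraries fitted, and 267 and 304 of those of the 2 male libraries. Among glutamate neurons, 7.51% had at least 1 and 1.61% at least 2. In mature oligodendrocytes (at least 3 Mog UMIs), which are not known to use the gene, 18 of 5547 cells (0.325%) had 1 and none had 2, which allows a share of up to 0.0541%. Their median depth was 4836 UMIs, against 7332 in GABA and 8114.5 in glutamate neurons. The minimum of 2 UMIs lay above what free RNA gave there, and it also selected deeper cells. Esr1 GABA neurons had a median of 9888 UMIs, against 7187 in Esr1-zero GABA neurons. Results at matched depth are given as counts of genes and for some single genes only.

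Esr1 GABA neurons carried more RNA of both named markers. In UMIs per 1000000 UMIs of the group (CPM), Pgr was at 89.4 and 77.5 in Esr1 neurons of the female libraries (replicates 1 and 2) and at 54.2 and 107 in those of the male libraries (replicates 1 and 2), against 22.6, 23.0, 28.9 and 29.0 CPM in Esr1-zero neurons of the same libraries. Each Esr1 group lay above all 4 Esr1-zero groups. The means were 82.1 ± 22.3 CPM in Esr1 and 25.9 ± 3.54 CPM in Esr1-zero neurons (SD, n = 4 libraries), a log2 difference of 1.72 (SE 0.14, adjusted p = 1.98e-13, edgeR quasi-likelihood test with library as block and Benjamini-Hochberg adjustment over 13791 genes).

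Greb1 was at 3.89 and 4.25 CPM in Esr1 neurons of the female and at 23.2 and 31.3 CPM in those of the male libraries, against 0.924, 1.12, 2.72 and 3.04 CPM in Esr1-zero neurons. Those levels rest on 23 UMIs over the 4 Esr1 groups. The log2 difference was 2.57 (SE 0.43, adjusted p = 2.47e-05, edgeR), and it was not called without the library block or with at least 3 Esr1 UMIs required. Both markers of the label were higher, Greb1 at a level of few molecules. A Greb1 UMI was in 18 of 269 Esr1 neurons (6.69%), against 1.25% of Esr1-zero neurons and 0.0721% of mature oligodendrocytes. The markers, like the gene lists, were chosen with earlier results of these data known. Their levels describe the cells and do not test the label.

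Esr1 lies on chromosome 10 (4611593 to 5005614, plus strand), Pgr on chromosome 9 (8899833 to 8968611, plus) and Greb1 on chromosome 12 (16670615 to 16800886, minus) of GRCm38, all as protein-coding genes. The 250 bases before the first RefSeq start of 3 genes higher in Esr1 neurons (RefSeq, GRCm38.p6) are shown because estrogen response elements are built from GGTCA and its reverse complement TGACC; capitals mark either of these, on the gene's strand.
Greb1, chr12:16800887-16801136, minus strand: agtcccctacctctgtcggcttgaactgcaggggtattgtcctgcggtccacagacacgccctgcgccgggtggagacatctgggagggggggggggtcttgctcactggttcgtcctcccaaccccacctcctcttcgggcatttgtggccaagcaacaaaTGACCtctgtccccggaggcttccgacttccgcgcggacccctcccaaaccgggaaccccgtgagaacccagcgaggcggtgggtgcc
Pgr, chr9:8899583-8899832, plus strand: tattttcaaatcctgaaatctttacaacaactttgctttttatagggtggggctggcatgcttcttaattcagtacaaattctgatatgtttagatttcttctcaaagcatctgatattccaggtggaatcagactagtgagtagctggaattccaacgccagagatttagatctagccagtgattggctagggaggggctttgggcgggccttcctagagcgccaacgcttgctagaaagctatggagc
Irs4, chrX:141725218-141725467, minus strand: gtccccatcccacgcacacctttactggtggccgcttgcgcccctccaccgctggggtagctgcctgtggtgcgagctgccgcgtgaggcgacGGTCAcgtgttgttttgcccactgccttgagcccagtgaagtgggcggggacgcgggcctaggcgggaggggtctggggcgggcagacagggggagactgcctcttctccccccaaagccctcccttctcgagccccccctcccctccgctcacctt
The Greb1 window held TGACC 88 bases before the start, the Irs4 window held GGTCA 157 bases before it, and the Pgr window held neither. The complete element, GGTCA followed by any 3 bases and TGACC, searched on both strands, was in 21 of 32851 such windows (0.0639%) of 27025 genes and in none of the 13219 windows of genes tested. One arm was in 31.2% of the 491 windows of genes higher in Esr1 GABA neurons (355 of 478 genes matched), in 31.7% of the 701 windows of genes lower there (490 of 654 matched), in 32.8% of the windows of genes tested and in 35.2% of all windows. The shares for higher and lower genes were thus close to each other and to that of the genes tested, and a match describes letters only.

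Across the genome, 478 of 13791 genes were higher in Esr1 than in Esr1-zero GABA neurons (3.47%) and 654 were lower (4.74%), 1132 in all (8.21%), with a median log2 difference of -0.03. Of the 1132, 662 of the 959 also tested were called against Esr1-zero neurons matched on depth, all 959 in the same direction. Without female replicate 2, which held 157 of the 269 cells, 372 genes were called, and without female replicate 1, 752 genes.

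**Figure D1:**
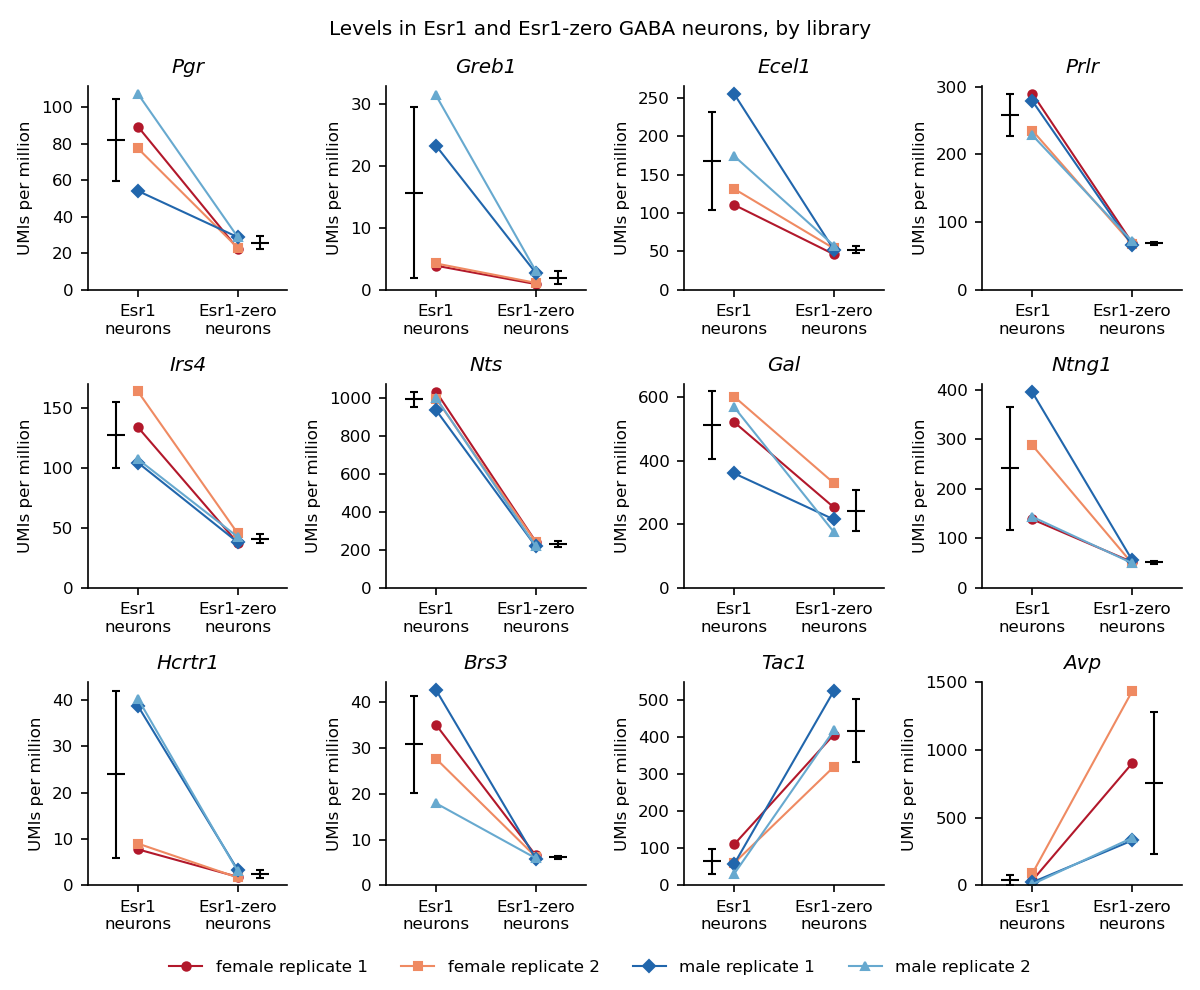
Level of 12 genes in Esr1 GABA neurons (left) and Esr1-zero GABA neurons (right) of each library, in UMIs per 1000000, with a line joining the pair of 1 library; bars beside the points are mean ± SD over 4 libraries. Pgr, Greb1, Ecel1, Prlr, Irs4, Nts, Gal, Ntng1, Hcrtr1 and Brs3 were higher in the Esr1 neurons of each library, and Tac1 and Avp lower.

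Among 8 steroid receptor genes tested, Pgr was higher and none lower, beside 3.47% and 4.74% of all genes. The list's median log2 difference was -0.01. Esr2, the gene of estrogen receptor beta, had 8 UMIs in all Esr1 GABA neurons, all in females, and its log2 difference of 2.07 missed the threshold (adjusted p = 0.0720, edgeR). The glucocorticoid receptor gene Nr3c1 had a log2 difference of -0.01, the mineralocorticoid receptor gene Nr3c2 of -0.49, and the membrane progesterone-binding genes Pgrmc1 and Pgrmc2 of -0.01 and 0.15, none called, and Nr3c1 and Pgrmc1 changed sign with DESeq2-type size factors. The orphan estrogen-related receptors Esrra, at -0.80, and Esrrg, at -0.43, were not called either.

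Of 16 tested genes known to answer estrogen in human breast cancer cells, Pgr, Nrip1, Greb1 and Fkbp4 were higher, beside 3.47% of all genes. Igfbp4, Ccnd1 and Xbp1 were lower, beside 4.74% of all genes, and the list median was 0.32. Nrip1, a corepressor that binds the liganded receptor, differed by 1.01, and Fkbp4, a cochaperone of steroid receptors, by 0.39. Igfbp4, which binds insulin-like growth factors, differed by -2.66 and the cyclin gene Ccnd1 by -1.28. Nrip1 and Fkbp4 were also the called members of 17 estrogen receptor cofactors. None of the 10 tested enzymes that make or convert steroids was called, and their median was -0.18.

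Of 16 receptors and adaptors for pituitary and metabolic hormones, 4 were higher, beside 3.47% of all genes, and none lower, with a median of 0.18. Prlr encodes the prolactin receptor. It was at 290 and 235 CPM in Esr1 neurons of the female and at 279 and 228 CPM in those of the male libraries, against 69.4, 67.4, 65.7 and 71.8 CPM in Esr1-zero neurons. The 4 Esr1 groups lay well above a tight Esr1-zero range, and the log2 difference was 1.88 (SE 0.09, adjusted p = 2.70e-21, edgeR). Irs4, an adaptor of insulin-family receptors, averaged 128 ± 27.8 CPM in Esr1 and 40.8 ± 3.84 CPM in Esr1-zero neurons (SD, n = 4), a log2 difference of 1.74. Prlr, Irs4 and Pgr were called under each of the 15 alternative settings tried for this comparison. The other called members were the insulin receptor adaptor Irs2, which differed by 0.63, and the ghrelin receptor gene Ghsr, with 10 UMIs in female replicate 2, 3 in male replicate 1 and none in the Esr1 neurons of the other 2 libraries.

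Among 44 neuropeptide receptors, 4 were higher and 5 lower, beside 3.47% and 4.74% of all genes, with a median of 0.05. Hcrtr1, the orexin receptor 1, was at 7.78 and 9.02 CPM in Esr1 neurons of the female and at 38.7 and 40.3 CPM in those of the male libraries, against 1.85, 1.71, 3.38 and 3.09 CPM in Esr1-zero neurons, a log2 difference of 2.85 (SE 0.34). Brs3, an orphan receptor of the bombesin family known for its role in energy balance, averaged 30.8 ± 10.5 CPM in Esr1 and 6.13 ± 0.312 CPM in Esr1-zero neurons, a log2 difference of 2.26. Npy2r, an inhibitory neuropeptide Y receptor, differed by 1.46, but not past the threshold without female replicate 2. The cholecystokinin receptor gene Cckar was the fourth that was higher. Among the lower receptors, Vipr2, the VIP receptor of clock neurons, had no UMI in Esr1 neurons and 462 in Esr1-zero neurons, which makes it at least 5.02-fold lower when 3 UMIs over the Esr1 group are taken as the floor. Ramp1, the calcitonin gene-related peptide coreceptor, differed by -2.30.

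The neuropeptides were called in both directions. Of 35 tested, Nts, Gal, Prok2 and Pnoc were higher and 11 lower, beside 3.47% and 4.74% of all genes, with a median of -0.76. Nts encodes neurotensin. It was at 1034 and 997 CPM in Esr1 neurons of the female and at 936 and 1002 CPM in those of the male libraries, against 243, 241, 217 and 217 CPM in Esr1-zero neurons. The 4 Esr1 groups lay close together (992 ± 40.8 CPM, SD, n = 4), far from the Esr1-zero groups, and the log2 difference was 2.08 (SE 0.06, adjusted p = 4.34e-29, edgeR). Gal encodes galanin and was at 521 and 601 CPM in Esr1 neurons of the female and at 360 and 568 CPM in those of the male libraries, against 252, 329, 215 and 175 CPM in Esr1-zero neurons, a log2 difference of 1.02 (SE 0.10). Against depth-matched Esr1-zero neurons Nts differed by 2.38 (adjusted p = 0.0543, edgeR) and Gal by 0.63 (adjusted p = 0.351, edgeR), so neither was called there.

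Several peptides known from other GABA neurons were lower. Avp, vasopressin, was at 36.9 and 88.1 CPM in Esr1 neurons of the female and at 23.2 and 8.95 CPM in those of the male libraries, against 900, 1432, 331 and 350 CPM in Esr1-zero neurons, a log2 difference of -4.13. Npy, neuropeptide Y, differed by -3.25, Tac1, the substance P precursor, by -2.47, and Penk, proenkephalin, by -1.22. Nms, a peptide of clock neurons, had 1 UMI in Esr1 neurons. Avp was not called without the library block and Npy not against depth-matched neurons.

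The transcription factors that pattern the hypothalamus and ventral forebrain also went both ways, with 12 of 44 higher, 13 lower and a median of -0.26. Over all genes, 3.47% were higher and 4.74% lower. Dlx1, a factor of GABA neuron development, averaged 170 ± 18.7 CPM in Esr1 and 72.4 ± 0.412 CPM in Esr1-zero neurons (SD, n = 4), a log2 difference of 1.25. Hmx2, a hypothalamic homeobox factor, differed by 1.88 and Nr2f2 (COUP-TFII) by 1.00. Meis2 was at 46.7 and 24.9 CPM in Esr1 neurons of the female and at 46.4 and 44.7 CPM in those of the male libraries, against 291, 199, 312 and 275 CPM in Esr1-zero neurons, a log2 difference of -2.84. Foxp2 differed by -2.11 and Foxp1 by -1.05. Meis2, Foxp1 and Foxp2 are known from striatal projection neurons.

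Of 7 tested markers of striatal projection neurons, 6 were lower and none higher, beside 4.74% and 3.47% of all genes. The markers had a median of -3.14, or -1.76 with the gene at 0 set to its bound. Their summed level was 96.7 to 148 CPM in Esr1 and 407 to 705 CPM in Esr1-zero GABA neurons, and Drd2 and Ido1 were at 0 in Esr1 neurons. Ppp1r1b, which encodes DARPP-32, differed by -3.99, the dopamine receptor gene Drd1 by -3.16 and the adenosine receptor gene Adora2a by -3.14. The sums of the Esr1 and Esr1-zero groups did not overlap. Clock nucleus markers summed to 139 to 455 CPM in Esr1 and 543 to 1879 CPM in Esr1-zero neurons, with 1 of 8 higher, 3 lower and a median of -0.57. Cholinergic markers summed to 4.47 to 13.6 CPM in Esr1 and 19.5 to 31.8 CPM in Esr1-zero neurons, with 2 of 5 lower, a median of -2.18 (-2.09 with the bound), and Chat and Slc18a3 at 0 in Esr1 neurons. The part in the genome-wide counts of Esr1-zero neurons that carry these markers was not tested.

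**Figure D2:**
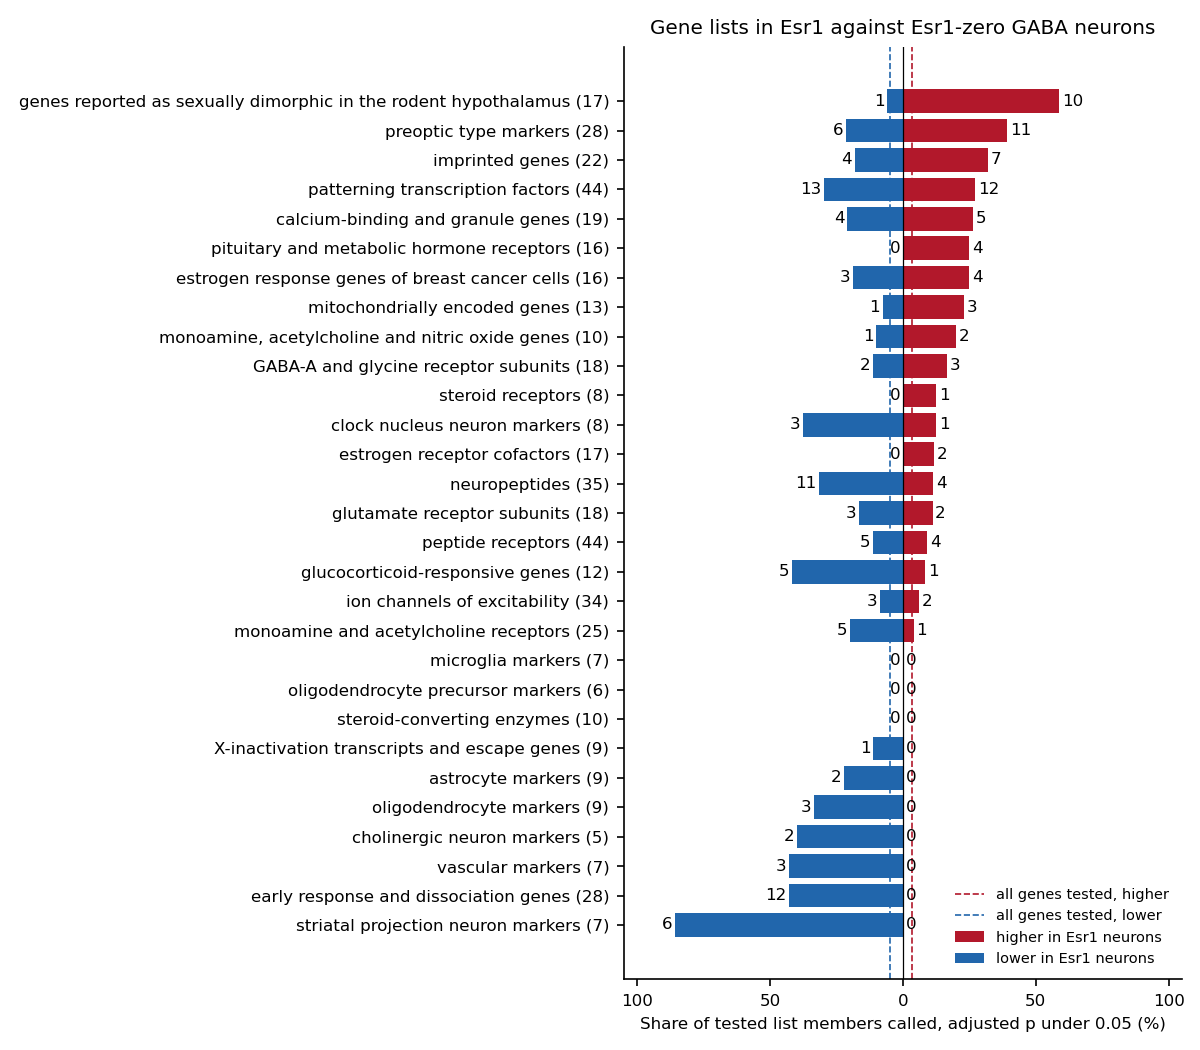
Share of the tested members of each gene list called higher (right, red) or lower (left, blue) in Esr1 than in Esr1-zero GABA neurons, with the number called beside each bar and the number tested in brackets; dashed lines give the share over all 13791 genes, 3.47% higher and 4.74% lower. The sexually dimorphic list had 10 of 17 higher, and markers of striatal projection neurons 6 of 7 lower.

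Of 17 tested genes that earlier rodent work lists as sexually dimorphic in the hypothalamus, 10 were higher in Esr1 neurons and only Tac1 was lower, with a median of 1.13. The higher ones were Irs4, Pgr, Brs3, Ecel1, Moxd1, Greb1, Sytl4, Cckar, Gldn and Rps6ka6. That is 10 of 17 beside 3.47% of all genes; the list was chosen with earlier results of these data known, and it shares Pgr and Greb1 with other lists. Ecel1, an endopeptidase-like protein of the neuronal secretory pathway, averaged 168 ± 64.0 CPM in Esr1 and 52.5 ± 4.75 CPM in Esr1-zero neurons (SD, n = 4), and was called. Of 28 preoptic type markers, 11 were higher and 6 lower, with a median of -0.27. Ntng1, a cell-surface protein that guides axons, was at 138 and 288 CPM in Esr1 neurons of the female and at 395 and 143 CPM in those of the male libraries, against 51.7, 49.0, 55.8 and 49.6 CPM in Esr1-zero neurons, with female replicate 2 and male replicate 1 above the other pair of libraries. Its log2 difference of 2.25 barely passed the threshold (adjusted p = 0.0464, edgeR) and was not called without either male library.

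Receptors for fast transmitters were called in both directions. Among 18 GABA-A and glycine receptor subunits, 3 were higher and 2 lower, beside 8.21% of all genes called, with a median of 0.07. Gabrq and Gabre, the theta and epsilon subunits, which lie in 1 gene cluster on the X chromosome and are known from the hypothalamus, differed by 1.23 and 1.36, and Gabrd, the extrasynaptic delta subunit, by -2.43. Among 18 glutamate receptor subunits 2 were higher and 3 lower (median -0.08), and among 34 ion channels of excitability 2 were higher and 3 lower (median -0.03). Of the 19 calcium-binding and secretory granule genes, 5 were higher and 4 lower (median -0.07), with Resp18, a neuroendocrine granule protein, at 0.60. Of 22 imprinted genes, 7 were higher and 4 lower (median 0.15), Peg3 by 0.47, Nap1l5 by 0.41 and Ndn by 0.36, and Meg3 by -0.47. Of 25 monoamine and acetylcholine receptors 1 was higher, the histamine receptor Hrh1 at 1.01, and 5 lower, among them the serotonin receptor Htr2c at -1.13 (median -0.50). Of 10 monoamine, acetylcholine and nitric oxide genes 2 were higher and 1 lower (median -0.39). The vesicular monoamine transporter Slc18a2 was called at 1.15 only through female replicate 2, and differed by -0.24 without it.

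Of 28 genes of the immediate early response, which dissociation also induces, 12 were lower and none higher, with a median of -0.70. Over all genes, 4.74% were lower and 3.47% higher. Egr4 differed by -1.99, Nr4a1 by -1.38 and Egr1 by -1.00. The summed level was 1142 to 2750 CPM in Esr1 and 2437 to 3592 CPM in Esr1-zero neurons, and within each library the Esr1 sum was the lower. Of 12 glucocorticoid-responsive genes 5 were lower and 1 higher (median -0.51), with the metallothionein Mt1 at -1.05. Mitochondrially encoded RNA was at 40268 to 57079 CPM in Esr1 and 36934 to 46461 CPM in Esr1-zero neurons, and 3 of its 13 genes were higher and 1 lower (median 0.10). Egr1, Egr4 and Nr4a1 were also called lower with each cell thinned to 3000 UMIs.

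No marker of glia or vessels was called higher in Esr1 neurons. Over all genes, 3.47% were higher and 4.74% lower. Astrocyte markers summed to 209 to 327 CPM in Esr1 and 239 to 309 CPM in Esr1-zero neurons (2 of 9 lower), oligodendrocyte markers to 834 to 1409 and 959 to 1696 CPM (3 of 9 lower), and precursor markers to 23.3 to 48.3 and 31.8 to 78.1 CPM (0 of 6 called). Microglia markers summed to 61.6 to 92.9 CPM in Esr1 and 75.7 to 132 CPM in Esr1-zero neurons (0 of 7 called) and vascular markers to 19.3 to 23.3 and 34.5 to 68.1 CPM (3 of 7 lower).

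In the female libraries the level of these genes also varied with the number of Esr1 UMIs in a cell. Male replicates 1 and 2 had 6 and 8 GABA neurons with at least 3 Esr1 UMIs, and the male classes are not shown. In female replicate 2, GABA neurons with 0, 1, 2 and at least 3 Esr1 UMIs (3746, 279, 95 and 62 cells) had Pgr at 23.0, 46.0, 76.0 and 79.5 CPM and Nts at 241, 483, 707 and 1396 CPM. Prlr was at 67.4, 179, 258 and 203 CPM in these classes and Gal at 329, 500, 576 and 636 CPM. Cells with a single Esr1 UMI, just outside the rule, lay between the Esr1-zero cells and those with 2 UMIs, just inside it, for each of these 4 genes. In female replicate 1 the classes held 1924, 113, 36 and 13 cells, and Nts (243, 1009, 620 and 1858 CPM) and Ntng1 (51.7, 123, 55.5 and 302 CPM) did not follow the order. Median depth was 8350, 10166, 10911 and 12745.5 UMIs over the classes of female replicate 2.

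**Figure D3:**
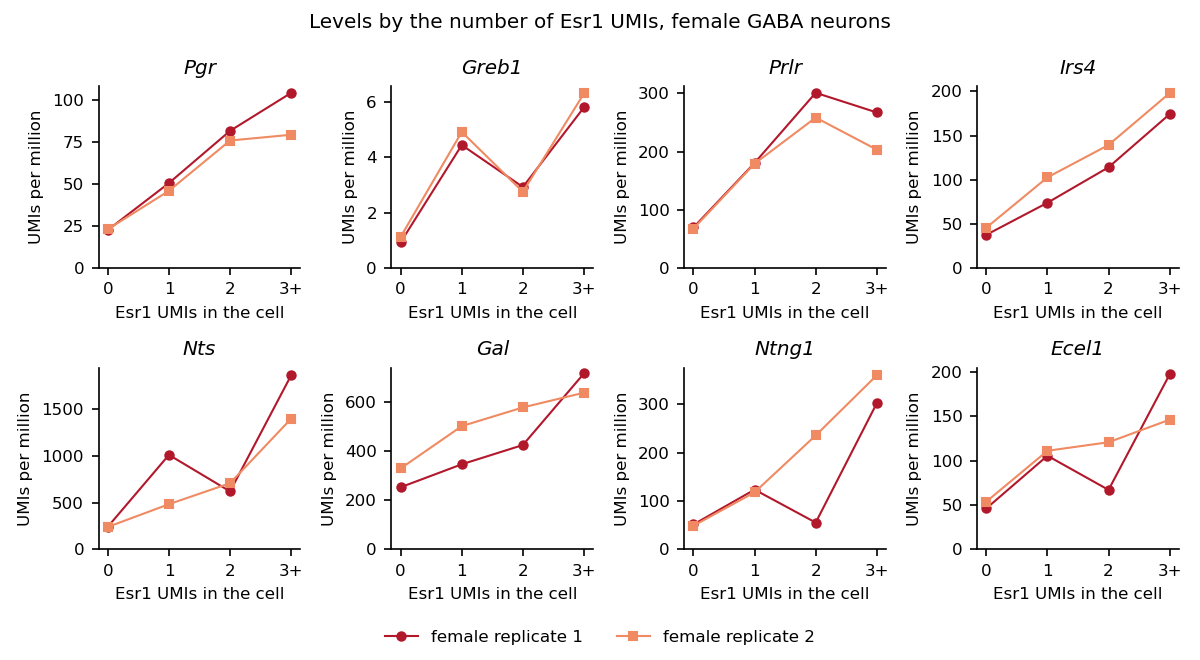
Level of 8 genes, in UMIs per 1000000, in GABA neurons with 0, 1, 2 or at least 3 Esr1 UMIs, for female replicates 1 and 2; each point is the sum over the cells of 1 class and library. Pgr, Irs4 and Gal increased over the classes in both female libraries. Greb1 in both, and Nts, Ntng1 and Ecel1 in female replicate 1, were lower at 2 UMIs than at 1. Male libraries are not shown.

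Cell by cell, the markers were spread over part of the Esr1 GABA neurons. With each cell thinned to 3000 UMIs, which kept 261 of 269 Esr1 and 10738 of 11671 Esr1-zero neurons, Prlr was seen in 49.8% of Esr1 cells (exact 95% interval 43.6 to 56.0%), against 14.2% of Esr1-zero cells (13.5 to 14.8%). Before thinning the shares were 76.6% and 24.9%. Pgr was seen in 22.6% of thinned Esr1 and 7.59% of thinned Esr1-zero cells, and Irs4 in 29.1% and 9.52%. In thinned mature oligodendrocytes these 3 genes were seen in 1.00%, 0.3% and 0.840% of 5000 cells, in the same order. The intervals cover counting error only, since cells of 1 library are not replicates.

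Peptide RNA was also seen in many oligodendrocytes. Nts was seen in 34.1% of thinned Esr1 and 18.2% of thinned Esr1-zero cells, with 5.04% in oligodendrocytes, and Gal in 36.0% and 13.8%, with 5.28% in oligodendrocytes. Tac1 was seen in 7.66% of Esr1 and 23.6% of Esr1-zero cells, and Meis2 in 3.45% and 31.7%. Oligodendrocytes had Tac1 in 10.9% and Meis2 in 3.64%, so neither share in Esr1 neurons was above that of oligodendrocytes. How much of either came from free RNA was not tested. Avp was seen in similar shares of Esr1 (15.3%) and Esr1-zero cells (16.4%) although the ranges of its summed level lay far apart, with 9.56% in oligodendrocytes.

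**Figure D4:**
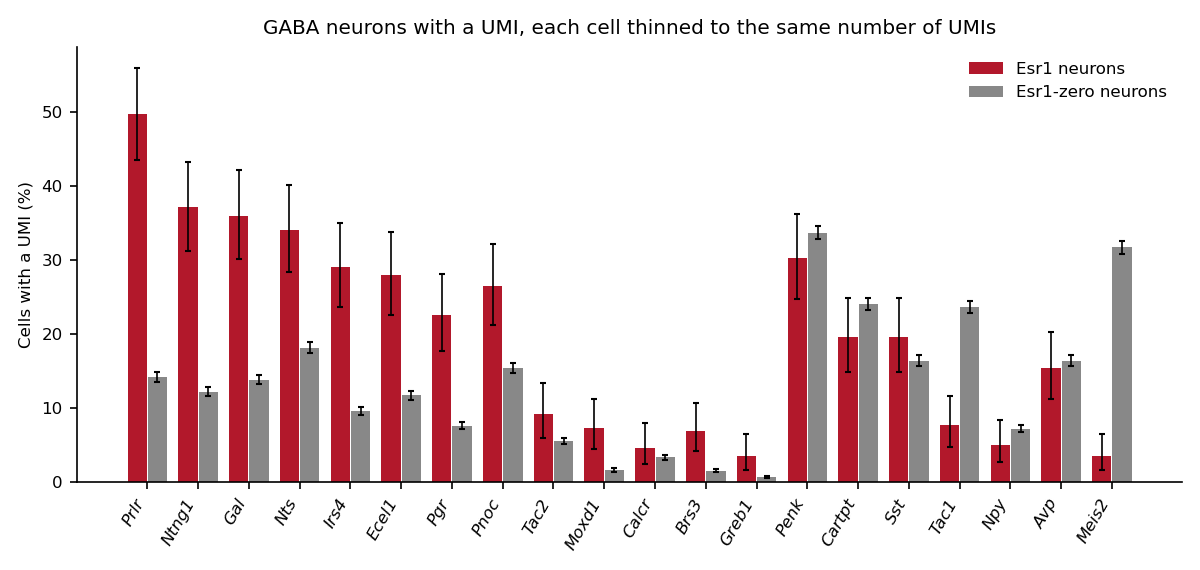
Share of GABA neurons with at least 1 UMI of each gene after thinning each cell to 3000 UMIs, in Esr1 neurons (red, 261 cells) and Esr1-zero neurons (grey, 10738 cells), with exact 95% intervals for counting error. The share was higher in Esr1 neurons for Prlr (49.8% against 14.2%) and lower for Meis2 (3.45% against 31.7%).

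Combinations of genes were counted with at least 2 UMIs required of each. Without thinning, 158 of 269 Esr1 neurons (58.7%) had Prlr and 58 had Pgr. Both were seen in 15.6% of Esr1 and 0.780% of Esr1-zero neurons, and neither in 35.3% and 86.2%. With cells thinned to 3000 UMIs, both were seen in 2.30% of Esr1 and 0.0466% of Esr1-zero neurons, and neither in 77.8% and 95.3%. The values thus moved strongly with depth, and in both settings Esr1 neurons had the higher share with both receptors.

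No peptide was seen at 2 UMIs in all Esr1 GABA neurons. Without thinning, Gal was seen in 33.1% of Esr1 and 9.47% of Esr1-zero neurons, Nts in 32.3% and 14.0%, and Pnoc, the nociceptin precursor, in 31.2% and 13.7%. Thinned, Gal was seen in 19.2% of Esr1 and 5.88% of Esr1-zero neurons, Nts in 24.9% and 9.37%, and Pnoc in 8.43% and 5.88%. Penk was seen in 27.5% of Esr1 and 28.6% of Esr1-zero neurons without thinning and in 14.9% and 21.0% with it. Gal and Nts occurred together in 37 of the 269 Esr1 neurons, and none of 9 peptides was seen in 19.7% of Esr1 and 31.2% of Esr1-zero neurons, or in 37.9% and 45.5% of thinned cells.

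Smaller overlaps were counted within the class, without thinning. Whether they exceeded what the separate share of each gene gives was not tested. Of the 89 galanin cells, 9 also had at least 2 UMIs of Calcr, the calcitonin receptor, and 13 had Tac2, the neurokinin B precursor. Of the 17 cells with Moxd1, which encodes a monooxygenase-like protein of the sexually dimorphic preoptic nucleus, 15 had Prlr and 2 had Irs4. Moxd1 was at 25.3, 19.1, 15.5 and 17.9 CPM in Esr1 neurons of the 4 libraries, in the order used above, and at 4.99, 7.04, 6.66 and 8.43 CPM in Esr1-zero neurons, a log2 difference of 1.56. Tac2 (1.27, adjusted p = 0.253) and Calcr (0.60, adjusted p = 0.0714) were not called by edgeR; Moxd1, Tac2 and Calcr were chosen after their values were seen.

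The 30 Esr1 neurons outside both transmitter definitions mostly carried both transmitters' genes. Of these, 27 (90%) had a GABA gene sum of at least 3 together with a Slc17a6 UMI, as did 43.7% of the 1563 Esr1-zero neurons outside both definitions. Prlr was seen in 80% and 26.0%, Pgr in 60% and 16.6%, and Nts in 63.3% and 23.0%. Their median depth was 12708 UMIs, against 5641 in the Esr1-zero cells.

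Esr1 glutamate neurons were few, with 4 cells from female replicate 1, 30 from female replicate 2, 2 from male replicate 1 and 7 from male replicate 2. All 4 libraries were fitted, with at least 2 cells each. Of 11265 genes, 25 were higher (0.222%) and 30 lower (0.266%), 55 in all (0.488%), with a median of -0.15 (-0.05 with DESeq2-type size factors, which gave 34 higher and 27 lower). The counts rest on few cells: 30 genes were called without female replicate 1 and 90 without female replicate 2. Against depth-matched Esr1-zero neurons 30 of the 55 genes were also tested, all in the same direction, and 7 of them were called. The genes named below are those of the fit without matching.

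Gal was called higher in Esr1 glutamate neurons as in Esr1 GABA neurons. It was at 402 and 231 CPM in Esr1 glutamate neurons of the female and at 395 and 751 CPM in those of the male libraries (15, 85, 4 and 30 UMIs), against 45.5, 74.3, 97.0 and 39.1 CPM in Esr1-zero glutamate neurons. The groups did not overlap, and the log2 difference was 2.37 (SE 0.28, adjusted p = 2.87e-13, edgeR). Of 31 neuropeptides 5 were higher and 7 lower (median 0.08), beside 0.222% and 0.266% of all genes. The higher ones were Gal, Bdnf, Adcyap1, Prok2 and Nmb, and the lower ones included Sst, Cck, Tac1, Ucn3 and Oxt. Adcyap1, which encodes PACAP, was at 80.4 and 266 CPM in Esr1 neurons of the female and at 98.7 and 375 CPM in those of the male libraries, against 61.9, 84.1, 75.2 and 72.5 CPM, a log2 difference of 1.44. Bdnf, a neurotrophin, differed by 1.46 with no UMI in male replicate 1, and Syt10, a synaptotagmin, by 1.40.

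Some glutamate calls rested on the female cells alone. The melanocortin receptor gene Mc4r, the adrenergic receptor gene Adra1b and the complement-like synaptic gene C1ql3 had log2 differences of 3.97, 2.69 and 2.41, with UMIs in both female and in neither male library. Isl1, a homeobox factor of hypothalamic neurons, differed by 2.06. Among the lower genes, Sst, somatostatin, was at 53.6 and 196 CPM in Esr1 neurons of the female and at 0 and 50.05 CPM in those of the male libraries, against 510, 1195, 320 and 889 CPM in Esr1-zero neurons. Tcf7l2, a factor of thalamic neurons, had 3 UMIs and differed by -4.60, and Cck, cholecystokinin, had 4 UMIs and differed by -4.08. Ctxn3, Ucn3 and Nfix had no UMI and were at least 6.90-fold, 4.21-fold and 3.21-fold lower. Oxt, oxytocin, also had none, but 1731 of its 1789 Esr1-zero UMIs came from male replicate 1 (403 CPM).

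Pgr and Prlr, higher in Esr1 GABA neurons, were not called in Esr1 glutamate neurons. Pgr was at 80.4 and 68.0 CPM in those of the female and at 0 and 75.1 CPM in those of the male libraries, against 31.2, 30.3, 48.2 and 39.9 CPM in Esr1-zero neurons (log2 difference 0.90, adjusted p = 0.517, edgeR). Greb1 had 1 UMI in Esr1 glutamate neurons. Tested against each other, the Esr1 difference of Pgr was 0.84 larger on the log2 scale in GABA than in glutamate neurons (adjusted p = 0.130, edgeR) and that of Greb1 2.30 larger (adjusted p = 0.506, edgeR), neither called.

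In all, the signed log2 Esr1 difference was higher in GABA than in glutamate neurons for 149 of 12177 genes (1.22%). It was lower for 64 (0.526%), which made 213 in all (1.75%). The median was 0.13 (0.02 with DESeq2-type size factors, which gave 94 and 84). The sign does not tell in which transmitter the change was larger. Sln, with 4.99, differed by -4.25 within glutamate neurons. Nts, Prlr, Hcrtr1 and Brs3 were among the 149 genes higher in GABA neurons. Hcrtr1 and Brs3, like Coch, Nfix and Ctxn3, had no UMI in Esr1 glutamate neurons. The fitted size of their difference between transmitters thus rests on a count of 0. Adra1b differed by -3.69, Crym, a thyroid hormone-binding protein, by -4.57 (with -3.51 within GABA neurons), and Cartpt, the CART peptide precursor, by -5.01. Calca, which encodes calcitonin gene-related peptide, differed by -6.34 and by 3.17 without female replicate 2, which held all 34 of its UMIs in Esr1 glutamate neurons. The count was 360 without female replicate 2, 129 without male replicate 1 and 124 without female replicate 1. With depth-matched Esr1-zero neurons 177 of the 213 genes were also tested, all in the same direction, and 52 of them were called.

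Few genes other than those of the sex chromosomes were called between female and male Esr1 GABA neurons. Few libraries of each sex were fitted, so a gene not called cannot be taken as equal between the sexes. Of 6380 genes, 1 was higher in females (0.0157%) and 10 lower (0.157%), 11 in all (0.172%). Xist, which silences 1 X chromosome, was at least 94.4-fold higher in females, and the Y-linked genes Eif2s3y and Kdm5d were at least 79.6-fold and 26.5-fold lower, with Ddx3y at -7.54 on the log2 scale. The sex labels of the libraries were thus borne out in the Esr1 cells. Eif2s3x, an X-linked gene that escapes inactivation, differed by 1.01 but was not called (adjusted p = 0.254, edgeR).

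Col25a1, a membrane collagen, was at 44.7 and 53.1 CPM in female and at 155 and 121 CPM in male Esr1 GABA neurons, a log2 difference of -1.40 (SE 0.26, adjusted p = 0.0183, edgeR). In Esr1-zero neurons it was at 69.7 and 65.0 CPM in females and at 83.0 and 86.0 CPM in males. The call of Col25a1 in Esr1 neurons was lost in 4 of 13 alternative settings. Arf3, a vesicle-traffic GTPase, and Camk2d, a calcium-dependent kinase, differed by -0.87 and -0.91. Female libraries were deeper per Esr1 cell, with medians of 9888 and 11872 UMIs in females and 7424 and 8195 in males, and with cells thinned to 3000 UMIs 2 genes were called, both among the 11. The number of called genes was 21 without shared barcodes, 54 without female replicate 1, 22 without female replicate 2 and 7 without male replicate 1. It was 96 with the replicate number as block, though the labels pair no replicates.

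Of 10 listed steroid receptor genes, 4 could be tested between the sexes and none was called, beside 0.172% of all genes. So few genes say little at that share. Pgr differed by 0.09. Hcrtr1 differed by -2.10 (SE 0.53, adjusted p = 0.109, edgeR), from 4 and 17 UMIs in female and 10 and 9 in male Esr1 neurons. Greb1, with 2 and 8 UMIs in female and 6 and 7 in male Esr1 neurons, was filtered out; in a fit with no filter on low counts it differed by -2.53 (adjusted p = 0.0560, edgeR). In Esr1-zero neurons Greb1 averaged 1.02 CPM in females and 2.88 CPM in males, and Hcrtr1 1.78 and 3.24 CPM, so both genes were lower in females in either class.

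Whether a sex difference itself differed between Esr1 and Esr1-zero GABA neurons was tested over 13791 genes. edgeR called 0, with 711 at an unadjusted p under 0.05, and DESeq2 called 0. The interaction was -1.20 for Greb1 and -1.19 for Hcrtr1 (adjusted p = 0.879 each, edgeR). Against depth-matched Esr1-zero neurons 3 genes were called.

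Between female and male Esr1 glutamate neurons, with 4 and 30 against 2 and 7 cells, 803 genes could be tested, 2 were higher in females (0.249%) and 1 lower (0.125%), 3 in all (0.374%). Beside Xist, Cartpt was higher, at 2655 and 3676 CPM in females (99 and 1352 UMIs) and at 0 and 50.05 CPM in males (0 and 2 UMIs), a log2 difference of 6.19. Trh, the thyrotropin-releasing hormone precursor, was lower, at 0 and 288 CPM in females and at 6416 and 2052 CPM in males (65 and 82 UMIs), a log2 difference of -4.41. In Esr1-zero glutamate neurons Cartpt was at 159 and 177 CPM in females and 133 and 129 CPM in males, and Trh at 656 and 946 CPM in females and 481 and 484 CPM in males. Both genes were also called for a sex difference that differed between Esr1 and Esr1-zero glutamate neurons (Cartpt 6.29, Trh -4.27), 1 of 11265 genes in each direction (0.00888% each, 0.0178% in all). The male values rest on 2 and 7 cells, and the test of the difference between classes called 0 genes without any 1 of the 4 libraries.

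The share of GABA neurons that were Esr1 neurons was 2.35%, 3.75% and 0% for the female libraries (replicates 1 to 3), and 1.02%, 1.07% and 0.671% for the male ones (replicates 1 to 3). The 0 of 65 cells in female replicate 3 allows a share of up to 4.62%. The means were 2.03 ± 1.90% in females and 0.921 ± 0.218% in males (SD, n = 3), a difference of 1.11 percentage points (exact permutation test, two-sided, p = 0.4, with 0.1 the smallest p that 3 against 3 allows). With each cell thinned to 3000 UMIs, cells with at least 2 Esr1 UMIs were 0.305% of female and 0.407% of male GABA neurons, a difference of -0.103, and cells with at least 1 were 3.09 ± 1.09% and 2.59 ± 0.353% (exact permutation p = 0.6). Female replicates 1 and 2 had the highest shares without thinning and, at 3.18% and 4.14% against at most 2.93% in males, with thinning at 1 UMI, but not with thinning at 2 UMIs; female replicate 3 lay below all males in each of these 3 settings. Among glutamate neurons the share was 1.28 ± 1.45% in females and 0.578 ± 0.742% in males (exact permutation p = 0.7).

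**Figure D5:**
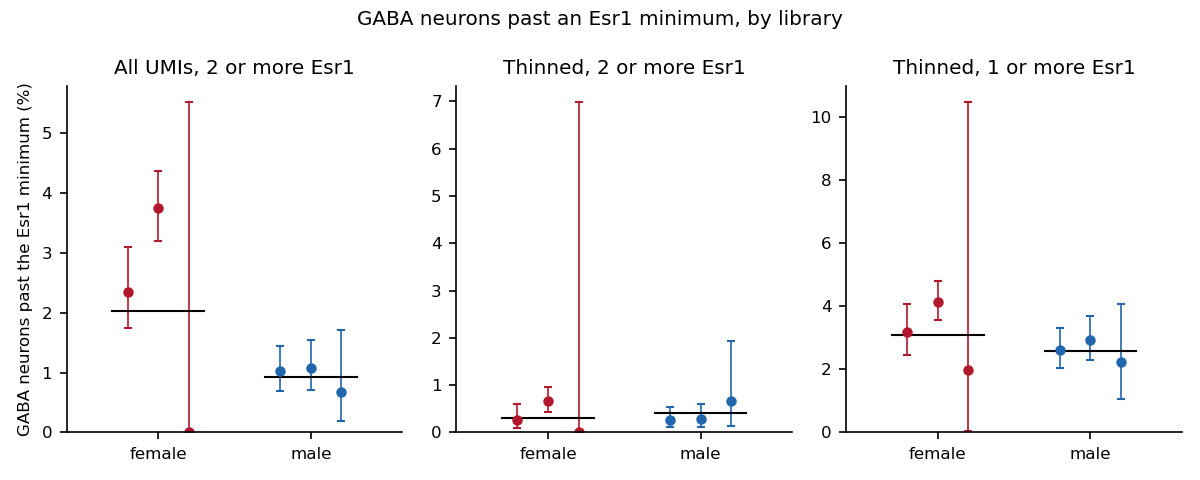
Share of GABA neurons past an Esr1 minimum in each library, female (left) and male (right), as counted with at least 2 UMIs (left panel), after thinning to 3000 UMIs with at least 2 (middle) and with at least 1 (right); bars are exact 95% intervals and horizontal lines means of 3 libraries. Female replicates 1 and 2 stand above the males in the left panel (2.35% and 3.75% against at most 1.07%), and female replicate 3 has an interval that spans them all.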

How the data were processed

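The authors deposited raw UMI counts per gene and barcode for 6 libraries, made with Cell Ranger 2.0.0 on the mouse build mm10, per the submitters' processing notes. No column was of an unknown sample. Cells were chosen by the rule above, with earlier results of these data known, as were the gene lists. Scrublet (scanpy 1.11.5, Python 3.11.15) marked 1002 barcodes as doublets, 2 of them Esr1 neurons, which were kept.

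UMIs were summed per library and cell group and tested with edgeR 4.0.16 (R 4.3.3, limma 3.58.1; TMM scaling, filterByExpr, quasi-likelihood test, Benjamini-Hochberg adjusted p under 0.05). Robust dispersion estimates without the legacy method were chosen after the default gave an infinite prior. The library was the block between Esr1 and Esr1-zero sums, since both come from 1 pool. A minimum of 10 cells per group was planned; it left no fit for glutamate neurons, and a minimum of 2, chosen after the cell numbers were seen, was used there. The script was tested on simulated data. DESeq2 1.42.0, other filters, scalings, depths and cell choices were tried as alternatives. Shares used exact permutation tests (scipy 1.17.1) and exact 95% Clopper-Pearson intervals, which cover counting error only. Cells were thinned to 3000 UMIs, and depth-matched controls were up to 5 Esr1-zero neurons per Esr1 neuron of the same library and depth.

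Genes were named by rule. These were Greb1, Pgr and the steroid receptors; the 12 higher and 8 lower genes with the largest change, at least 20 CPM in the higher group and 1 sign in every library; up to 8 per direction between transmitters; sex chromosome genes and up to 6 per direction between sexes, and 5 for the interaction with sex; and up to 3 called members per list and direction. Others were chosen after their values were seen. Some genes are not reported here and were left out of the lists, but not of the fits. Gene positions are from GENCODE vM21 (GRCm38) and promoters from RefSeq (GRCm38.p6).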

Additional observations from a re-analysis of the deposited data

Results flagged for a closer look

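In 92 groups of 4 libraries, 10 values stood far from the others. The cutoff used flags about 1 in 20 groups of normally distributed values. That rate does not hold for counts near 0, since a gene with UMIs in only 1 library is always flagged. In Esr1 GABA neurons the flagged values were Adora2a in female replicate 1 (11.7 CPM) and Nr3c1 in male replicate 2 (62.6 CPM). In Esr1 glutamate neurons they were Syt10 in female replicate 1 (215 CPM), Pgr in male replicate 1 (0 CPM), Esrra in male replicate 2 (25.0 CPM), and in female replicate 2 Sln (8.16 CPM), Cck (10.9 CPM), Fndc5 (2.72 CPM) and Nr3c2 (5.44 CPM), each the only library with a UMI. In Esr1-zero glutamate neurons it was Oxt in male replicate 1 (403 CPM).

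The Esr1 difference differed between GABA and glutamate neurons for 213 genes by the edgeR interaction test. On the log2 scale, GABA minus glutamate, it was 4.99 for Sln, 4.07 for Gm27199 and 3.70 for Nrg3. It was -6.34 for Calca, -5.01 for Cartpt, -4.57 for Crym, -4.47 for Tnnt2, -4.34 for Ptk2b and -3.69 for Adra1b. The sex difference differed between Esr1 and Esr1-zero glutamate neurons for Trh (-4.27) and Cartpt (6.29).

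Signals also appeared in cells outside the comparisons. Prlr was seen in 80% of the 30 Esr1 neurons of neither transmitter definition. Nts was at 1134 CPM in the 4 Esr1 GABA neurons of male replicate 3, which entered the comparison of Esr1 with Esr1-zero neurons only where libraries with fewer cells were added.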

How the results depend on the processing

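Counts of called genes moved with the settings. For Esr1 against Esr1-zero GABA neurons (1132) they were 492 with DESeq2, 397 with thinned cells, 32 with at least 3 Esr1 UMIs, and 372 to 1109 without 1 library. For glutamate neurons (55) they were 7 with DESeq2, 7 thinned, 1 with at least 3 Esr1 UMIs, 8 with depth-matched controls and 30 to 90 without 1 library. For the difference between transmitters (213) they were 127, 22, 77 and 56 in the same 4 settings, and 124 to 360 without 1 library. Between the sexes in GABA neurons (11) they were 4 with DESeq2, 33 with no filter, 2 thinned, 21 without shared barcodes, 3 with smaller libraries added and 7 to 54 without 1 library. In glutamate neurons (3) they were 1 with DESeq2, 5 with no filter and 2 to 13 without 1 library. For the sex interaction in GABA neurons (0) they were 3 with 1 spread for all genes and 3 with depth-matched controls. In glutamate neurons (2) they were 4 with DESeq2-type size factors, 1 with DESeq2, 0 thinned, 1 depth-matched and 0 without any 1 library. At least 3 Esr1 UMIs left no fit for the tests of sex. The cause was not tested.

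The replicate numbers pair no samples in the labels. Across genes, the difference between the female replicates fitted was correlated with that between the male replicates fitted, taken in the same order of number. This correlation was 0.0757 in Esr1 GABA, 0.557 in Esr1-zero GABA and -0.0385 in Esr1 glutamate neurons. With a replicate block the sex comparison called 96 genes in GABA neurons, all 11 among them, and 0 in glutamate neurons. Without the library block the counts were 694 for GABA, 92 for glutamate and 87 for the transmitter difference. The share differences had p = 0.5 each with the block (exact permutation).

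The sex difference of the share reversed to -0.103 points in thinned GABA neurons (0.253 to 2.13 without 1 library). In glutamate neurons it was -0.0137 thinned at 1 UMI and -0.0763 (without female replicate 2) to 1.35 without 1 library. Of single-gene values, 2023 kept their status as called or not called, 496 lost a call and 1 gained one. Another 24 reversed, all but those of Calca and Slc18a2 in genes that were not called. Ranges without 1 library follow. Between Esr1 and Esr1-zero GABA neurons they were -0.725 to 0.060 for Esrrg, -0.24 to 1.28 for Slc18a2, -0.087 to 0.055 for Nr3c1 and -0.035 to 0.035 for Pgrmc1. Nr3c1 was also 0.0092 with other size factors, 0.070 thinned and 0.16 with at least 3 Esr1 UMIs, and Pgrmc1 0.024 with other size factors and 0.024 with DESeq2. In glutamate neurons they were -0.041 to 0.27 for Nr3c1 and -0.44 to 0.086 for Pgrmc2, which was also 0.064 thinned, 0.052 with at least 3 UMIs and 0.037 without the library block; Pgrmc1 was 0.082 with matched controls. Between transmitters they were -6.34 to 3.17 for Calca and -0.030 to 0.74 for Pgrmc2. Between sexes they were -0.32 to 0.64 for Pgr, -0.22 to 1.75 for Utp14a, -0.22 to 0.11 for Pgrmc2, -0.32 to 0.026 for Ddx3x and -0.16 to 0.86 for Kdm6a, and with thinned cells -0.16 for Pgr and -0.18 for Nr3c1.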
